A study of Homo sapiens with 15 samples.

Results

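The HOX cluster genes described here are all genes of the count tables whose symbol is HOXA, HOXB, HOXC or HOXD followed by a number alone, with HOXB13 set aside by the rule. The rule used names only, not measured values, and it gave 38 genes of the 58381 in each table. They fall into 11 HOXA genes, 9 HOXB genes, 9 HOXC genes and 9 HOXD genes. Of the 38, 36 had a fragment in at least 1 library, 8 had at most 3 fragments in every library, and HOXB1 and HOXB2 had none in any library.

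Bulk RNA-seq was performed on 15 libraries of VCaP, an established prostate cancer cell line with the TMPRSS2-ERG fusion, with 3 libraries for each of 5 sublines. VCaP-T had grown for 7 months in RPMI medium with 10% DCC-FBS, L-glutamine and 10 nM testosterone. By the protocol text, VCaP-CT arose when VCaP-T was held at 0.1 nM testosterone for 10 further months, whereas the characteristics list 10 nM for every subline. VCaP-CT-ER came from VCaP-CT kept in 10 µM enzalutamide (ENZ), an antiandrogen, until growth returned, and the protocol text calls it VCaP-CT-ET. VCaP-CT-BR came from VCaP-CT kept in bicalutamide, an earlier antiandrogen whose concentration is not given, and its characteristics also mention ENZ after bicalutamide. VCaP-CT-BR-ER was the subline that grew again in ENZ after bicalutamide. VCaP-T is labeled androgen sensitive and the other sublines resistant. A single derivation is described for each subline, so treatment, time in culture and derivation cannot be told apart, and the study calls the libraries biological replicates without describing how they were separated, so the p-values measure the spread between these libraries only.

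HOX genes encode homeodomain transcription factors that give cells their position along the body axis. In each cluster the genes lie in the order of their numbers, and genes of low number act toward the head while those of high number act toward the tail. The posterior genes, such as HOXA10, HOXA13 and HOXD13, pattern the urogenital tract, from which the prostate buds. HOX proteins bind DNA together with TALE homeodomain partners of the PBX, MEIS and PKNOX families. Polycomb complexes keep silent HOX genes off, Trithorax complexes keep active ones on, and retinoic acid turns on genes of low number first.

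Library totals ranged from 33665716 to 46935279 fragments on genes, and 6385 to 13116 of these per library came from the HOX genes. A count of 0 in a library allows a share of up to 6.39e-08 to 8.91e-08 of its fragments, a floor of 3 fragments that covers counting error only. All 8 luminal and VCaP markers were expressed in every subline, at a summed 3802 to 8823 CPM (fragment counts scaled to a common library total), while CD3E and COL1A2 were at 0. KLK3, an androgen target, averaged 3560 CPM for VCaP-T against 33.2 for VCaP-CT. Markers of other cell types also differed between the sublines. The summed level of the 4 stroma markers lay between 6.21 and 7.94 CPM in VCaP-T and VCaP-CT. It lay between 24.0 and 25.0 in VCaP-CT-BR and between 184 and 250 in the ENZ-resistant sublines. LUM made up most of the latter, at means of 196 CPM for VCaP-CT-ER and 236 for VCaP-CT-BR-ER. COL1A1 went the other way, averaging 6.56 CPM for VCaP-T against 0.431 for VCaP-CT-ER and 0.906 for VCaP-CT-BR-ER. DCN averaged at most 0.417 CPM in any subline. The 2 endothelium markers summed to between 13.2 and 16.2 CPM in VCaP-T and to at most 0.269 in the ENZ-resistant sublines. Of the 3 basal markers, KRT14 averaged 10.1 CPM for VCaP-T but 0.217 for VCaP-CT-BR-ER, and KRT5 and TP63 had at most 6 fragments in any library. The 3 leukocyte markers summed to at most 0.994 CPM. The part of these genes in the HOX results was not tested. In bulk RNA, fewer expressing cells and less RNA per cell cannot be told apart.

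Levels of different genes were compared as TPM, in which fragments are divided by the exonic length and then scaled to a common total. HOXA13 stood highest with a mean of 34.7 TPM over the 15 libraries, followed by HOXC6 at 27.1, HOXA10 at 24.7, HOXC4 at 15.2, HOXA9 at 14.6, HOXC9 at 12.3, HOXA5 at 11.1 and HOXA11 at 10.5. Divided by only those exonic bases that no other gene shares, HOXA13 came to 33.4 TPM, HOXA10 to 31.8, HOXC6 to 30.5, HOXA9 to 19.0 and HOXC4 to 17.5. HOXA11 came to 14.3, HOXC9 to 12.9, HOXA6 to 6.11, HOXD4 to 1.95 against 0.401, and HOXC5 to 1.40 against 0.592. HOXA13 stayed highest, but the order of HOXC6 and HOXA10, of HOXC4 and HOXA9 and of HOXC9 and HOXA11 depended on the length used. HOXD8 at 5.85 TPM led its cluster, and HOXB7 at 4.03 led the HOXB genes. HOXC13 at 3.97 TPM, HOXA6 at 3.86, HOXA3 at 1.83, HOXC8 at 1.53 and HOXD13 at 1.04 were the other members with a mean of at least 1 TPM. Other stretches of the same clusters were close to 0. HOXD9, HOXD10, HOXD11 and HOXD12 had at most 4 fragments in any library although HOXD8 and HOXD13, their neighbors on either side, reached 410 and 53. HOXC10 and HOXC11 had at most 8 and 2 fragments between HOXC9 and HOXC12. HOXB3, HOXB4, HOXB5 and HOXB8 had at most 8 fragments, HOXA7 at most 5, HOXD1 at most 10, HOXA4 at most 11 and HOXD3 at most 14.

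Whether such zeros could come from sequence that occurs at several places was checked in the genome, since fragments with several places were not counted. Of 1819 windows of 100 bases tiled over the exons of the 38 genes, 3 windows, all in HOXA10, had a second place with at most 2 mismatches in GRCh38 with its alternate sequences. By contrast, 98.7% to 100% of the windows of PBX2, RING1, RXRB, PHF1 and PCGF2, which had at most 4 fragments in any library, had a second place. None of the windows of HOXB1 and HOXB2 had a second place in this build. Fragments on several genes were not counted either, and the part of this loss in the low counts was not tested. HOXD3 shares 74.1% of its exonic bases with other genes, HOXA7 62.5%, HOXD1 58.1% and HOXA4 47.3%. HOXB1, HOXB8, HOXC11, HOXD9 and HOXD12 share none.

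**Figure D1:**
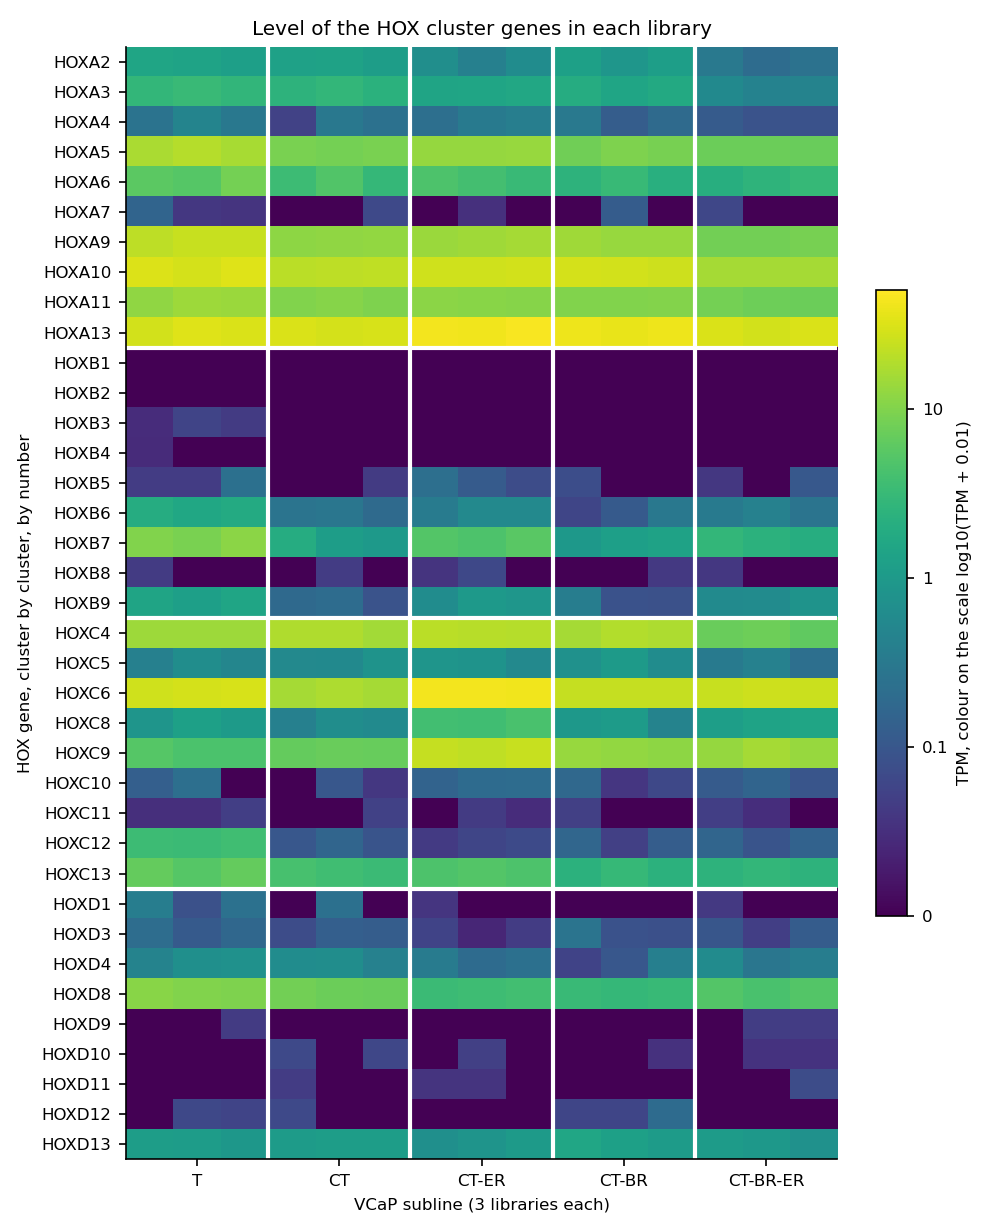
Level of the HOX genes named in the text (rows, cluster by cluster in order of number) in the 15 libraries (columns, 3 for each VCaP subline), with color for TPM on the scale log10(TPM + 0.01). HOXA13, HOXA10 and HOXC6 are bright in every subline, HOXC12 is bright in VCaP-T and dark elsewhere, and HOXB1, HOXB2 and HOXD9 to HOXD12 are dark throughout.

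Summed over its members, HOXA made up most of the HOX RNA in every subline, with a mean of 128 ± 5.7 TPM (SD, n = 3) for VCaP-T, 90.1 ± 0.97 for VCaP-CT and, among the antagonist-resistant sublines, 116 ± 3.1 for VCaP-CT-ER, 106 ± 2.0 for VCaP-CT-BR but 72.7 ± 1.9 for VCaP-CT-BR-ER. HOXC followed with 59.1 ± 1.1, 45.5 ± 2.5, 95.1 ± 0.95, 57.8 ± 1.6 and 50.6 ± 2.9 TPM in the same order. HOXB held 13.4 ± 1.5 TPM in VCaP-T and at most 6.61 elsewhere. HOXD held 12.2 ± 0.84 TPM in VCaP-T, 9.54 ± 0.62 in VCaP-CT and between 4.72 and 6.29 in the antagonist-resistant sublines. The share of HOXA thus lay between 52.1% (VCaP-CT-ER) and 62.3% (the bicalutamide-resistant VCaP-CT-BR).

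Changes between sublines were tested on the counts with edgeR's quasi-likelihood test for 22 of the 38 genes, those that passed a filter on low counts, together with all 19621 genes that passed. The filter asked for about 10 fragments in 3 libraries, so a gene could pass through 1 subline, and 15 of the 38 had at least 10 fragments in every library. The steps compared were VCaP-CT against VCaP-T, VCaP-CT-ER against VCaP-CT, VCaP-CT-BR against VCaP-CT, and VCaP-CT-BR-ER against VCaP-CT-BR. Both steps that start from VCaP-CT share its libraries. At an adjusted p under 0.05 all 22 tested members differed somewhere among the 5 sublines, against 88.9% of all tested genes.

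From VCaP-T to VCaP-CT, 14 of the 22 tested members fell and 2 rose, where 32.2% of all tested genes fell and 33.1% rose. In either direction this was 16 members against 65.3% of all genes, and 5 members changed at least 2-fold against 20.8%. The median log2 fold change of the tested members was −0.55, against 0.03 for all genes. HOXC12, among the members that fell, passed the filter through VCaP-T alone. In VCaP-CT-ER against VCaP-CT, 12 members rose and 4 fell, 16 in all against 60.9% of genes, with 29.6% of genes higher and 31.2% lower, and 8 members changed at least 2-fold against 17.5%. In VCaP-CT-BR against VCaP-CT, 4 rose and 5 fell, 9 in all against 53.2% of genes, of which 26.1% were higher and 27% lower, and HOXD4 and HOXD8 changed at least 2-fold against 9.96%. In VCaP-CT-BR-ER against VCaP-CT-BR, 4 rose and 9 fell, 13 in all against 42.9% of genes, with 21.2% higher and 21.7% lower, and 6 changed at least 2-fold against 7.98%. The CPM of the 2 groups did not overlap for 16, 18, 9 and 16 of the 22 members in the 4 steps, against 66.6%, 63.3%, 57.7% and 53.1% of all genes.

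**Figure D2:**
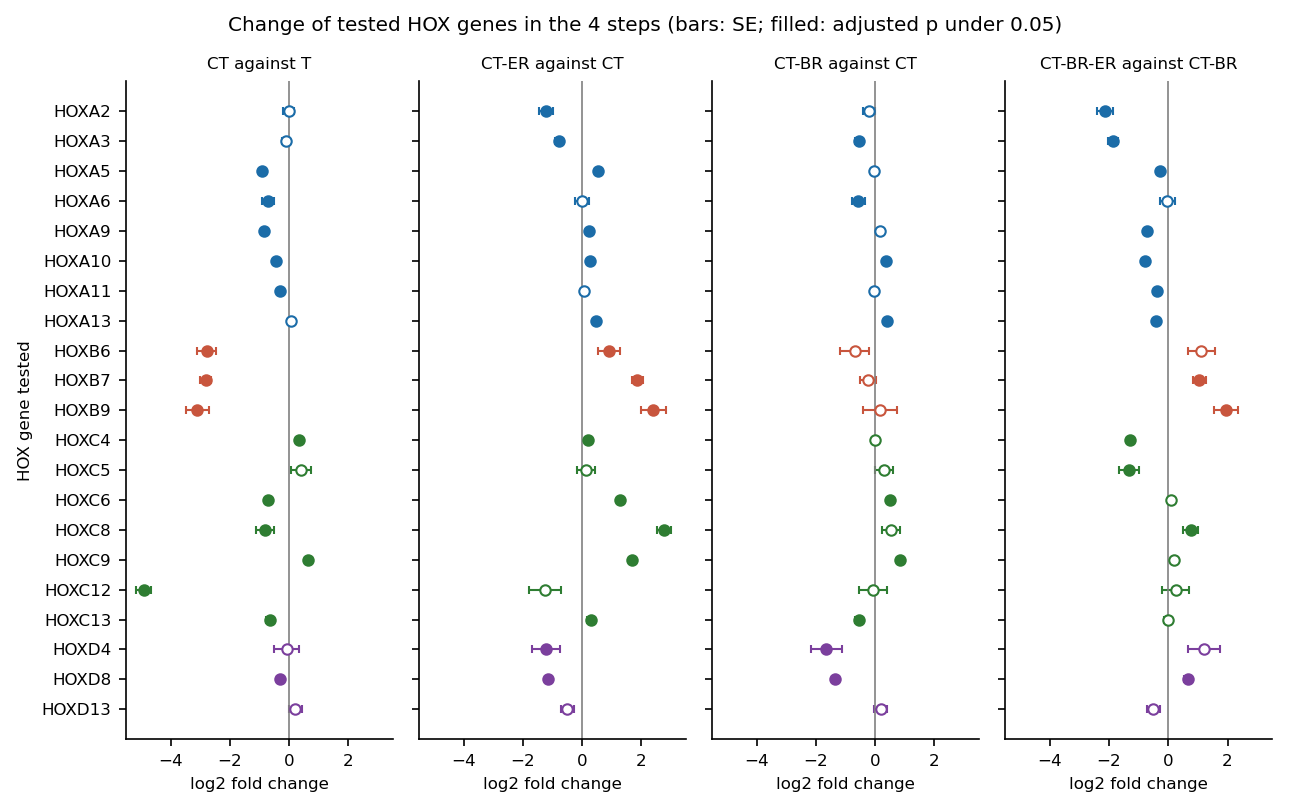
Log2 fold change (horizontal axis) of the tested HOX genes (vertical axis) in the 4 steps, with the SE as bars, color for the cluster and filled points for an adjusted p under 0.05. HOXB genes lie left of 0 in VCaP-CT and right of 0 in both ENZ-resistant sublines, with HOXB6 unfilled in VCaP-CT-BR-ER, HOXA genes lie at or left of 0 in VCaP-CT-BR-ER, and HOXC12 at −4.90 in VCaP-CT is the largest change.

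The HOXA cluster lies on chromosome 7, with all 11 genes on the minus strand. Its tested members fell or did not pass the test in VCaP-CT, where 6 of 9 fell, split in VCaP-CT-ER, where HOXA5, HOXA9, HOXA10 and HOXA13 rose and HOXA2 and HOXA3 fell, and fell again in VCaP-CT-BR-ER, where 7 of 9 were lower. Of all tested genes, 32.2% fell in VCaP-CT, 29.6% rose and 31.2% fell in VCaP-CT-ER, and 21.7% fell in VCaP-CT-BR-ER. Promoters were taken from RefSeq on GRCh38.p14, whose table matched 20 of the 38 genes, with 250 bases before and 50 after a start. Not matched were, among others, HOXA5, HOXB2 to HOXB9, HOXC6, HOXC8 to HOXC13 and HOXD9. Each sequence is written 5′ to 3′ on the strand of its gene, with capitals for a motif found on either strand. One motif was the core promoter sequence TATAAA. Another was AGAACA, which is an arm of the steroid hormone response element. The last was TGATTNAT, which HOX proteins bind together with PBX proteins. The full element, 2 such arms facing each other across 3 free bases, was searched as well and holds AGAACA on both strands. Shown are the promoters of HOXA2, the HOXA gene with the largest called fall in VCaP-CT-BR-ER, and of HOXA10, an abundant gene that fell there too.
HOXA2, chr7:27102634-27102933, minus strand: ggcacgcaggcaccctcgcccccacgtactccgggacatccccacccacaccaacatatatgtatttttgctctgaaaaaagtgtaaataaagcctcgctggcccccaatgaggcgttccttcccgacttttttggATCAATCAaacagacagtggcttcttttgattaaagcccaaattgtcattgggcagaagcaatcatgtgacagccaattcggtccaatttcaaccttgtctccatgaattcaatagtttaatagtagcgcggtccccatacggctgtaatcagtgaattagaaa
HOXA10, chr7:27179812-27180111, minus strand: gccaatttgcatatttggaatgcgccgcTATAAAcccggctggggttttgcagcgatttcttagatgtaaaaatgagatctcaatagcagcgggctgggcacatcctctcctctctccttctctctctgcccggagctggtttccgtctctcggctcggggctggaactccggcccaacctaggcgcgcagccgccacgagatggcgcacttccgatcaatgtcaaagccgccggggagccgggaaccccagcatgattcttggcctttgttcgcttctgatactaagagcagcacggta
HOXA2 held 1 match to TGATTNAT, 114 bases before the start, a motif in 2.82% of all 34943 promoters of this length. HOXA10 held 1 match to TATAAA, 222 bases before the start, found in 11.6% of all promoters. These distances are from the RefSeq starts. The annotation used for counting starts HOXA2 further upstream, at 27102811, and HOXA10 at 27180261, so both matches lie inside the genes as annotated there. The HOXA2 window had 11 CG dinucleotides and that of HOXA10 had 21, against a median of 14. The HOXA10 exons share 26.3% of their bases with other annotated genes, whose shared fragments were not counted.

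HOXA13, the last gene of the cluster, averaged 59.1 CPM for VCaP-T against 61.1 for VCaP-CT (log2 fold change 0.05, SE 0.06, adjusted p = 0.486). The level of HOXA13 was 55.6, 63.3 and 58.4 CPM across VCaP-T, 63.3, 58.3 and 61.7 across VCaP-CT, then 82.6, 81.0 and 90.1 across VCaP-CT-ER, 81.3, 77.2 and 81.2 for VCaP-CT-BR, and lastly 61.1, 57.4 and 63.4 for VCaP-CT-BR-ER. All of the VCaP-CT-ER values lay above those of VCaP-CT, as did those of VCaP-CT-BR. HOXA13 rose in VCaP-CT-ER (log2 fold change 0.47, SE 0.059, adjusted p = 6.26e-07) and in VCaP-CT-BR (log2 fold change 0.39, SE 0.059, adjusted p = 1.29e-05) and fell in VCaP-CT-BR-ER (log2 fold change −0.40, SE 0.059, adjusted p = 1.19e-05).

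HOXA10 and HOXA9, posterior genes next to each other, both fell in VCaP-CT, rose in VCaP-CT-ER and fell in VCaP-CT-BR-ER. For HOXA10, the values were 45.3, 41.3 and 44.5 CPM across VCaP-T, 31.0, 31.4 and 33.4 across VCaP-CT, then 38.0, 38.5 and 39.8 across VCaP-CT-ER, 42.9, 41.8 and 37.9 for VCaP-CT-BR, and lastly 23.2, 23.6 and 23.6 for VCaP-CT-BR-ER. HOXA9 measured 25.5, 28.4 and 27.3 CPM across VCaP-T, 14.6, 14.8 and 15.5 across VCaP-CT, then 16.3, 17.4 and 18.9 across VCaP-CT-ER, 17.6, 16.3 and 15.7 for VCaP-CT-BR, and lastly 9.77, 9.95 and 10.7 for VCaP-CT-BR-ER. VCaP-CT-BR-ER was the lowest subline for both genes, with no overlap to any other. HOXA10 fell in VCaP-CT (log2 fold change −0.45, SE 0.059, adjusted p = 8.61e-07), rose in VCaP-CT-ER (log2 fold change 0.28, SE 0.059, adjusted p = 0.000325) and VCaP-CT-BR (log2 fold change 0.35, SE 0.059, adjusted p = 3.50e-05) and fell in VCaP-CT-BR-ER (log2 fold change −0.80, SE 0.06, adjusted p = 6.89e-10). HOXA9 fell in VCaP-CT (log2 fold change −0.86, SE 0.071, adjusted p = 8.87e-10), rose in VCaP-CT-ER (log2 fold change 0.23, SE 0.072, adjusted p = 0.00896), was not called in VCaP-CT-BR (log2 fold change 0.15, SE 0.073, adjusted p = 0.0963) and fell in VCaP-CT-BR-ER (log2 fold change −0.71, SE 0.075, adjusted p = 1.31e-07).

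HOXA2 and HOXA3, genes of the hindbrain and its neural crest, both fell in VCaP-CT-ER and again in VCaP-CT-BR-ER. The level of HOXA2 was 1.40, 1.31 and 1.08 CPM across VCaP-T, 1.27, 1.31 and 1.15 across VCaP-CT, then 0.621, 0.376 and 0.596 across VCaP-CT-ER, 1.22, 0.837 and 1.14 for VCaP-CT-BR, and lastly 0.292, 0.190 and 0.236 for VCaP-CT-BR-ER. For HOXA3, the values were 4.65, 5.23 and 4.28 CPM across VCaP-T, 4.20, 4.76 and 4.05 across VCaP-CT, then 2.34, 2.49 and 2.73 across VCaP-CT-ER, 3.34, 2.54 and 3.00 for VCaP-CT-BR, and lastly 0.947, 0.732 and 0.760 for VCaP-CT-BR-ER. For both, VCaP-CT-BR-ER lay below every other subline without overlap, and VCaP-T overlapped VCaP-CT. HOXA2 fell in VCaP-CT-ER (log2 fold change −1.23, SE 0.23, adjusted p = 8.23e-05) and in VCaP-CT-BR-ER (log2 fold change −2.13, SE 0.28, adjusted p = 2.07e-06). HOXA3 fell in VCaP-CT-ER (log2 fold change −0.79, SE 0.13, adjusted p = 1.70e-05), in VCaP-CT-BR (log2 fold change −0.55, SE 0.13, adjusted p = 0.00102) and in VCaP-CT-BR-ER (log2 fold change −1.85, SE 0.16, adjusted p = 9.26e-09). HOXA3 shares 17.9% of its exonic bases with 4 other genes, among them HOXA-AS2 and HOXA-AS3, and HOXA2 shares none.

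HOXA5, HOXA6 and HOXA11 fell in VCaP-CT. HOXA5 averaged 11.4 CPM for VCaP-T, then 6.05 for VCaP-CT, with 8.68 for VCaP-CT-ER, while VCaP-CT-BR had 5.93 against 4.92 for VCaP-CT-BR-ER, with a fall in VCaP-CT (log2 fold change −0.91, SE 0.089, adjusted p = 1.31e-08) and a rise in VCaP-CT-ER (log2 fold change 0.52, SE 0.09, adjusted p = 3.95e-05). Its fall in VCaP-CT-BR-ER (log2 fold change −0.27, SE 0.096, adjusted p = 0.0280) was not called without VCaP-CT-BR replicate 2, at adjusted p = 0.149, or replicate 3, at 0.0624, nor without VCaP-CT-BR-ER replicate 1, 2 or 3, at 0.0723, 0.0624 and 0.0736. HOXA11 fell in VCaP-CT (log2 fold change −0.31, SE 0.076, adjusted p = 0.00131) and in VCaP-CT-BR-ER (log2 fold change −0.37, SE 0.078, adjusted p = 0.000668). HOXA6, with 40.1% of its exonic bases shared with other genes, fell in VCaP-CT (log2 fold change −0.72, SE 0.20, adjusted p = 0.00356), and its fall in VCaP-CT-BR (log2 fold change −0.57, SE 0.23, adjusted p = 0.0414) was not called without VCaP-CT replicate 2, at adjusted p = 0.313, VCaP-CT replicate 1, at 0.0539, VCaP-CT-BR replicate 1, at 0.0877, or VCaP-CT-BR replicate 3, at 0.165. Without VCaP-CT replicate 2 its log2 fold change was −0.31.

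The HOXB cluster, at chr17:48528526-48633572 on GRCh38 with all 9 genes on the minus strand, passed the filter with HOXB6, HOXB7 and HOXB9 alone. These genes stood highest in VCaP-T, fell 6.89- to 8.61-fold in VCaP-CT and were higher again in VCaP-CT-ER. All 3 tested members fell in VCaP-CT, all 3 rose in VCaP-CT-ER, none was called in VCaP-CT-BR, and HOXB7 and HOXB9 rose in VCaP-CT-BR-ER. Of all tested genes, 32.2% fell in VCaP-CT, 29.6% rose in VCaP-CT-ER, 53.2% were called in VCaP-CT-BR and 21.2% rose in VCaP-CT-BR-ER. No promoter of these 3 genes was matched.

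HOXB7, the most abundant HOXB gene, carried the pattern with the most fragments. HOXB7 measured 5.84, 5.25 and 6.38 CPM across VCaP-T, 1.21, 0.683 and 0.615 across VCaP-CT, then 2.98, 2.76 and 3.35 across VCaP-CT-ER, 0.570, 0.733 and 0.793 for VCaP-CT-BR, and lastly 1.65, 1.46 and 1.23 for VCaP-CT-BR-ER. From the top, VCaP-T came before VCaP-CT-ER, then VCaP-CT-BR-ER, with no overlap, and VCaP-CT overlapped VCaP-CT-BR. HOXB7 fell in VCaP-CT (log2 fold change −2.81, SE 0.18, adjusted p = 1.93e-11), rose in VCaP-CT-ER (log2 fold change 1.86, SE 0.20, adjusted p = 4.37e-08), did not pass the test in VCaP-CT-BR (log2 fold change −0.24, SE 0.25, adjusted p = 0.445) and rose in VCaP-CT-BR-ER (log2 fold change 1.05, SE 0.22, adjusted p = 0.000647). Its mean in VCaP-CT-ER, 3.03 CPM, remained below the 5.82 CPM of VCaP-T.

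HOXB9 followed the same steps. The level of HOXB9 was 1.46, 1.20 and 1.39 CPM across VCaP-T, 0.181, 0.199 and 0.0838 across VCaP-CT, then 0.621, 1.00 and 0.869 across VCaP-CT-ER, 0.363, 0.0785 and 0.0744 for VCaP-CT-BR, and lastly 0.583, 0.624 and 0.813 for VCaP-CT-BR-ER. The ENZ-resistant libraries all lay above those of VCaP-CT and of VCaP-CT-BR and below those of VCaP-T. HOXB9 fell in VCaP-CT (log2 fold change −3.11, SE 0.39, adjusted p = 4.52e-07) and rose in VCaP-CT-ER (log2 fold change 2.41, SE 0.41, adjusted p = 3.46e-05) and in VCaP-CT-BR-ER (log2 fold change 1.96, SE 0.41, adjusted p = 0.000602), and it was not called in VCaP-CT-BR (log2 fold change 0.15, SE 0.57, adjusted p = 0.849). Its level in VCaP-CT and VCaP-CT-BR rested on 3 to 14 fragments per library.

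HOXB6, which shares 33.0% of its exonic bases with HOXB-AS3 and HOXB3, fell in VCaP-CT (log2 fold change −2.78, SE 0.32, adjusted p = 1.27e-07). For HOXB6, the values were 1.95, 1.55 and 1.72 CPM across VCaP-T, 0.272, 0.285 and 0.196 across VCaP-CT, then 0.331, 0.543 and 0.546 across VCaP-CT-ER, 0.0518, 0.105 and 0.297 for VCaP-CT-BR, and lastly 0.316, 0.434 and 0.262 for VCaP-CT-BR-ER. VCaP-T lay above all other libraries, and the ENZ-resistant sublines overlapped each other. The rise in VCaP-CT-ER (log2 fold change 0.90, SE 0.38, adjusted p = 0.0468) was not called without any one library of VCaP-CT, at adjusted p of 0.0637 to 0.133, nor without VCaP-CT-ER replicate 2, at 0.128, or replicate 3, at 0.110, any one library of VCaP-T, at 0.0508 to 0.0524, or VCaP-CT-BR-ER replicate 1, at 0.0508. In VCaP-CT-BR-ER the value was a log2 fold change 1.11, SE 0.45, adjusted p = 0.0516. Below the filter, HOXB3 had 2, 5 and 4 fragments in VCaP-T and 0 in the other 12 libraries, and HOXB5 had 1, 1 and 7 in VCaP-T and 8, 4 and 2 in VCaP-CT-ER.

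**Figure D3:**
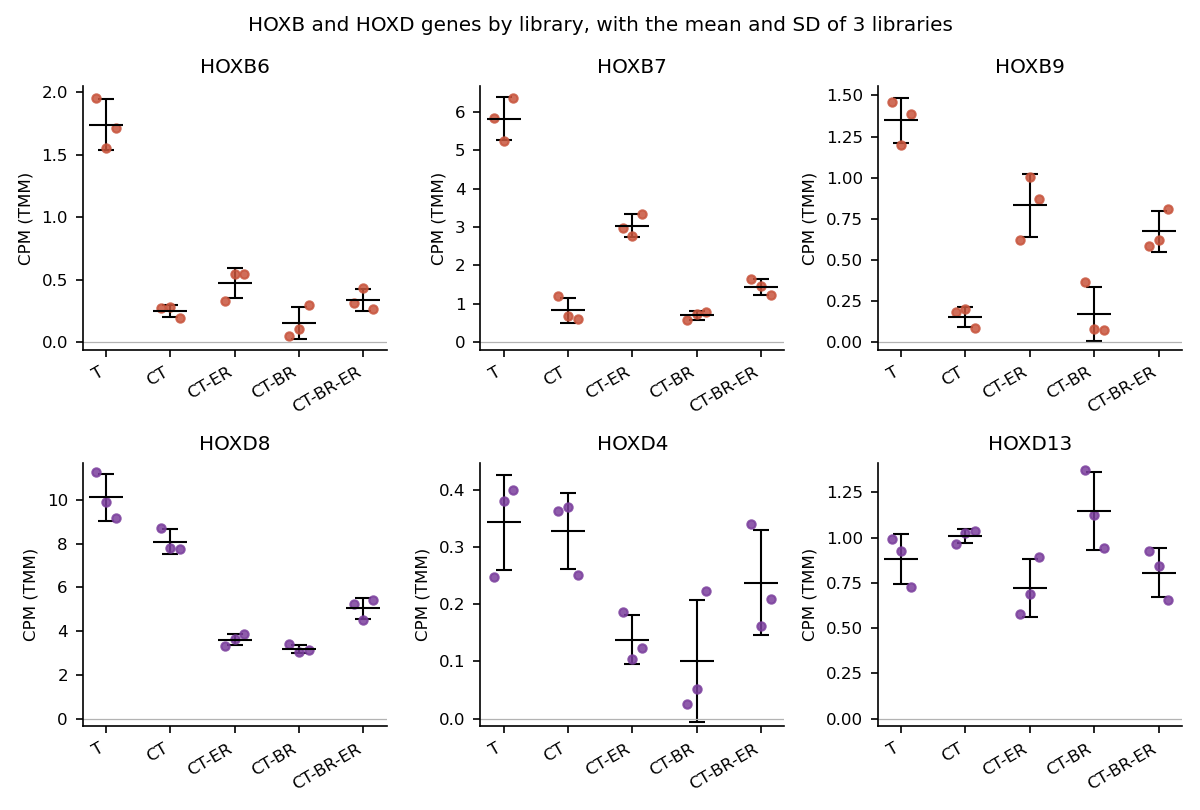
CPM after TMM scaling (vertical axis, from 0) of HOXB6, HOXB7, HOXB9, HOXD8, HOXD4 and HOXD13 in the 5 sublines, with points for the 3 libraries and bars for the mean and SD. The HOXB genes are highest in VCaP-T, HOXB7 and HOXB9 are higher in both ENZ-resistant sublines than in their parents, HOXB6 did not pass the test in VCaP-CT-BR-ER, and HOXD8 is lowest in VCaP-CT-ER and VCaP-CT-BR.

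The HOXC cluster, at chr12:53938765-54056030 on GRCh38 with all 9 genes on the plus strand, held the largest fall and the largest rise among the tested members. Nearly all HOXC12 fragments came from VCaP-T, HOXC6, HOXC8 and HOXC9 rose in VCaP-CT-ER, and HOXC4 with HOXC5 fell in VCaP-CT-BR-ER. Of 7 tested members, 2 rose and 4 fell in VCaP-CT, and 5 rose in VCaP-CT-ER. There were 2 rises and 1 fall for VCaP-CT-BR, then 1 rise and 2 falls for VCaP-CT-BR-ER. Over all tested genes, the shares that rose were 33.1%, 29.6%, 26.1% and 21.2%, with the steps in this order. The shares that fell were 32.2%, 31.2%, 27% and 21.7%. The HOXC counts were not tested against these shares.

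HOXC12, one of the most posterior genes of the cluster, had 163, 153 and 192 fragments in the VCaP-T libraries and between 2 and 8 in each of the other 12. HOXC12 measured 4.49, 4.16 and 4.52 CPM across VCaP-T, 0.121, 0.199 and 0.112 across VCaP-CT, then 0.0414, 0.0627 and 0.0745 across VCaP-CT-ER, 0.207, 0.0523 and 0.149 for VCaP-CT-BR, and lastly 0.194, 0.108 and 0.184 for VCaP-CT-BR-ER. VCaP-T lay above every other library, and VCaP-CT was 29.8-fold lower (log2 fold change −4.90, SE 0.25, adjusted p = 3.53e-13). HOXC12 passed the filter on low counts through VCaP-T alone, so its place among the tested members rests on the subline where it was high. The later steps compare 2 to 8 fragments per library. No later step was called, with VCaP-CT-ER at a log2 fold change −1.25, SE 0.55, adjusted p = 0.0556. HOXC12 shares no exonic base with another gene. Its neighbor HOXC13, a gene of hair and nail, stayed expressed at 88 to 252 fragments per library. HOXC13 fell in VCaP-CT (log2 fold change −0.65, SE 0.12, adjusted p = 7.02e-05) and in VCaP-CT-BR (log2 fold change −0.56, SE 0.13, adjusted p = 0.00145), and its rise in VCaP-CT-ER (log2 fold change 0.30, SE 0.12, adjusted p = 0.0405) was not called without VCaP-CT replicate 3, at adjusted p = 0.133, or replicate 2, at 0.0900, nor without VCaP-CT-ER replicate 2, at 0.111, or replicate 3, at 0.0514.

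HOXC6, a gene of the trunk that is often raised in prostate cancer, was the most abundant HOXC gene. The level of HOXC6 was 37.0, 39.0 and 38.7 CPM across VCaP-T, 22.9, 25.0 and 22.7 across VCaP-CT, then 57.6, 57.8 and 56.3 across VCaP-CT-ER, 33.4, 33.3 and 32.9 for VCaP-CT-BR, and lastly 33.6, 36.5 and 35.5 for VCaP-CT-BR-ER. VCaP-CT was the lowest subline and VCaP-CT-ER the highest, and no neighboring sublines in this order overlapped. HOXC6 fell in VCaP-CT (log2 fold change −0.70, SE 0.055, adjusted p = 4.39e-10), rose in VCaP-CT-ER (log2 fold change 1.28, SE 0.055, adjusted p = 2.10e-14) and in VCaP-CT-BR (log2 fold change 0.50, SE 0.056, adjusted p = 2.22e-07), and did not pass the test in VCaP-CT-BR-ER (log2 fold change 0.08, SE 0.054, adjusted p = 0.226).

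HOXC9 was the only tested member higher in VCaP-CT, VCaP-CT-ER and VCaP-CT-BR alike. For HOXC9, the values were 3.44, 2.83 and 2.73 CPM across VCaP-T, 4.50, 4.67 and 4.81 across VCaP-CT, then 15.1, 14.2 and 15.9 across VCaP-CT-ER, 8.89, 8.27 and 7.73 for VCaP-CT-BR, and lastly 8.58, 10.5 and 9.18 for VCaP-CT-BR-ER. Its order ran upward from VCaP-T through VCaP-CT to VCaP-CT-ER without overlap, and the bicalutamide-resistant sublines overlapped each other between VCaP-CT and VCaP-CT-ER. HOXC9 rose in VCaP-CT (log2 fold change 0.64, SE 0.12, adjusted p = 6.17e-05), in VCaP-CT-ER (log2 fold change 1.69, SE 0.097, adjusted p = 2.92e-12) and in VCaP-CT-BR (log2 fold change 0.83, SE 0.10, adjusted p = 7.97e-07), and VCaP-CT-BR-ER gave a log2 fold change 0.18, SE 0.093, adjusted p = 0.122.

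HOXC8 had few fragments outside VCaP-CT-ER, where it reached 132, 128 and 126 against 10 to 17 in VCaP-CT. HOXC8 measured 0.606, 0.898 and 0.706 CPM across VCaP-T, 0.302, 0.484 and 0.447 across VCaP-CT, then 2.73, 2.67 and 3.13 across VCaP-CT-ER, 0.700, 0.785 and 0.322 for VCaP-CT-BR, and lastly 0.875, 1.06 and 1.13 for VCaP-CT-BR-ER. The VCaP-CT-ER libraries lay above every other library, and VCaP-T overlapped both bicalutamide-resistant sublines. HOXC8 rose in VCaP-CT-ER (log2 fold change 2.77, SE 0.24, adjusted p = 2.36e-09). Its fall in VCaP-CT (log2 fold change −0.83, SE 0.30, adjusted p = 0.0207) was not called without VCaP-CT replicate 1, at adjusted p = 0.0886, or VCaP-T replicate 2, at 0.0897. Its rise in VCaP-CT-BR-ER (log2 fold change 0.76, SE 0.26, adjusted p = 0.0208) was not called without VCaP-CT-BR replicate 3, at adjusted p = 0.135, or VCaP-CT-BR-ER replicate 2 or 3, at 0.0508 and 0.0701.

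**Figure D4:**
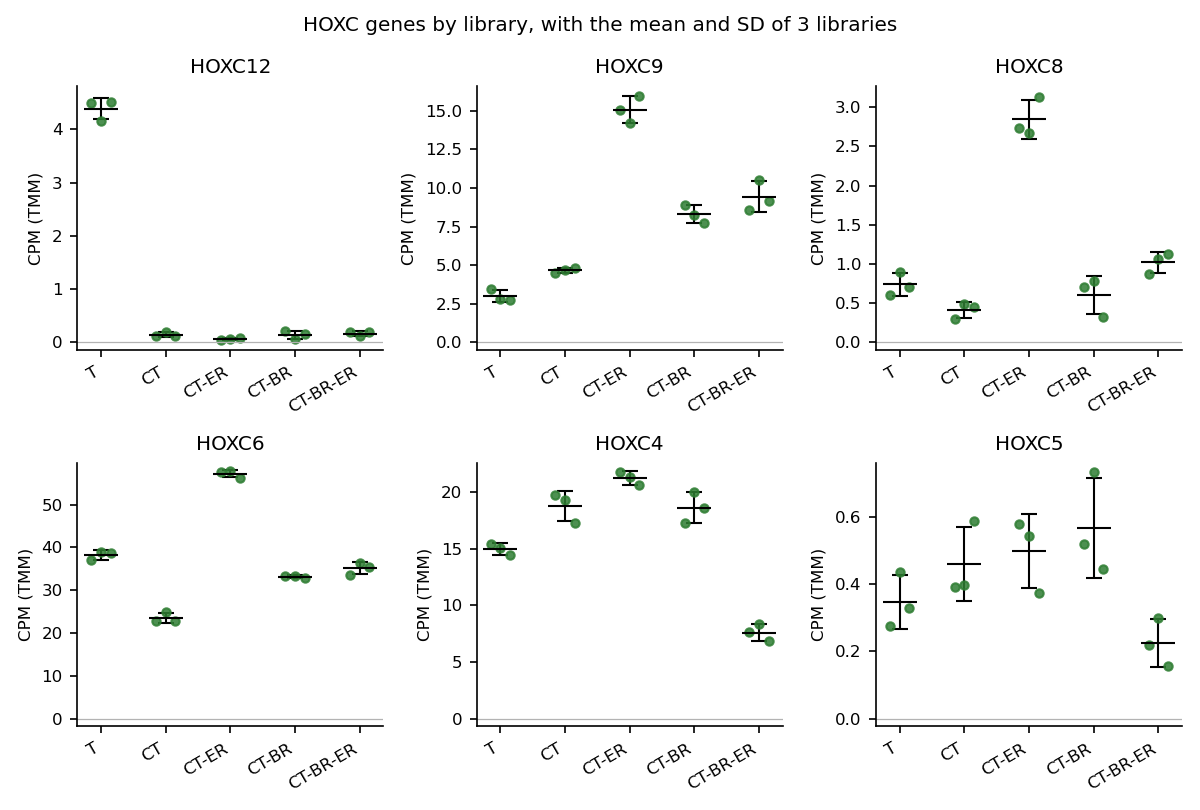
CPM after TMM scaling (vertical axis, from 0) of 6 HOXC genes in the 5 sublines, with points for the 3 libraries and bars for the mean and SD. HOXC12 is near 0 outside VCaP-T, HOXC9, HOXC8 and HOXC6 peak in VCaP-CT-ER, and HOXC4 and HOXC5 are lowest in VCaP-CT-BR-ER.

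HOXC5 lies within the span of HOXC4, and RefSeq gives both 1 shared start, which is why this promoter is shown. The annotation of the files starts HOXC5 further downstream, at 54032853.
HOXC4 and HOXC5, chr12:54016638-54016937, plus strand: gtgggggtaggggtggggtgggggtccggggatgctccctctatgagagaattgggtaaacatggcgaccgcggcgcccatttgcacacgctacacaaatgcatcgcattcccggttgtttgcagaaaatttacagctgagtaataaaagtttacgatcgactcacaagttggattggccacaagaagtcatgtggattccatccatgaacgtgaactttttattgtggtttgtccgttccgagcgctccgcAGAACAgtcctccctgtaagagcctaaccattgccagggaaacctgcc
The window held 1 match to AGAACA, 2 bases after the start, and 15 CG dinucleotides. AGAACA occurred in 14.8% of all promoters, among them those of HOXA3, HOXA9 and HOXA11, and the full element in 1 of the 34943, which was not that of a HOX gene. The level of HOXC4 was 15.4, 15.1 and 14.4 CPM across VCaP-T, 19.7, 19.3 and 17.2 across VCaP-CT, then 21.8, 21.3 and 20.6 across VCaP-CT-ER, 17.3, 19.99 and 18.6 for VCaP-CT-BR, and lastly 7.63, 8.35 and 6.82 for VCaP-CT-BR-ER. For HOXC5, the values were 0.275, 0.436 and 0.330 CPM across VCaP-T, 0.392, 0.399 and 0.587 across VCaP-CT, then 0.580, 0.543 and 0.373 across VCaP-CT-ER, 0.518, 0.733 and 0.446 for VCaP-CT-BR, and lastly 0.219, 0.298 and 0.157 for VCaP-CT-BR-ER. The latter rested on 6 to 28 fragments per library. The 3 libraries of VCaP-CT-BR-ER were the lowest for HOXC4, with no overlap, and for HOXC5 VCaP-CT-BR-ER overlapped VCaP-T alone. HOXC4 rose in VCaP-CT (log2 fold change 0.32, SE 0.078, adjusted p = 0.000992) and fell in VCaP-CT-BR-ER (log2 fold change −1.29, SE 0.082, adjusted p = 5.33e-11), and HOXC5 fell there too (log2 fold change −1.32, SE 0.34, adjusted p = 0.00346). The rise of HOXC4 in VCaP-CT-ER (log2 fold change 0.18, SE 0.075, adjusted p = 0.0429) was not called without VCaP-CT replicate 3, at adjusted p = 0.145, VCaP-CT-ER replicate 1, at 0.0838, or VCaP-CT-ER replicate 2, at 0.0713. HOXC5 shares 59.9% and HOXC4 shares 17.8% of its exonic bases with other genes, but none with each other.

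The HOXD cluster, at chr2:176092891-176190907 on GRCh38 with all 9 genes on the plus strand, was represented by HOXD8, with HOXD13 and HOXD4 at about 1 TPM or less. HOXD8 is a gene of the trunk, and its promoter is shown because it fell in both sublines that were derived from VCaP-CT.
HOXD8, chr2:176129455-176129754, plus strand: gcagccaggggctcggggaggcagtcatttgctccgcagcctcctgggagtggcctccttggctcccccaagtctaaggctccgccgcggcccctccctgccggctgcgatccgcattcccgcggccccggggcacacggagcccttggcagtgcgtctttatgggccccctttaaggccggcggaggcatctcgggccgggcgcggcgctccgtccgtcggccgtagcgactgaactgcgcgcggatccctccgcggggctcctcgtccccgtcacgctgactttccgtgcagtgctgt
The window held none of the searched motifs and 34 CG dinucleotides. HOXD8 measured 11.3, 9.88 and 9.18 CPM across VCaP-T, 8.73, 7.80 and 7.74 across VCaP-CT, then 3.33, 3.63 and 3.87 across VCaP-CT-ER, 3.40, 3.04 and 3.15 for VCaP-CT-BR, and lastly 5.22, 4.50 and 5.401 for VCaP-CT-BR-ER. VCaP-T lay above VCaP-CT and VCaP-CT above VCaP-CT-BR-ER, while VCaP-CT-ER overlapped VCaP-CT-BR at the bottom. HOXD8 fell in VCaP-CT (log2 fold change −0.32, SE 0.096, adjusted p = 0.00582), in VCaP-CT-ER (log2 fold change −1.16, SE 0.10, adjusted p = 4.23e-09) and in VCaP-CT-BR (log2 fold change −1.34, SE 0.11, adjusted p = 2.00e-09), and it rose in VCaP-CT-BR-ER (log2 fold change 0.66, SE 0.11, adjusted p = 6.72e-05).

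HOXD4 rested on 1 to 17 fragments per library and shares 80.5% of its exonic bases with another annotated gene. The level of HOXD4 was 0.248, 0.381 and 0.400 CPM across VCaP-T, 0.362, 0.370 and 0.252 across VCaP-CT, then 0.186, 0.104 and 0.124 across VCaP-CT-ER, 0.0259, 0.0523 and 0.223 for VCaP-CT-BR, and lastly 0.340, 0.163 and 0.210 for VCaP-CT-BR-ER. VCaP-CT lay above VCaP-CT-ER and VCaP-CT-BR, which overlapped each other. HOXD4 fell in VCaP-CT-ER (log2 fold change −1.21, SE 0.48, adjusted p = 0.0336), which was not called without VCaP-CT-ER replicate 2, at adjusted p = 0.114, or replicate 3, at 0.0829, nor without VCaP-CT replicate 1, at 0.0887, or replicate 2, at 0.0981. It fell in VCaP-CT-BR (log2 fold change −1.65, SE 0.53, adjusted p = 0.0121), which was not called without VCaP-CT-BR replicate 1, at adjusted p = 0.0687, or replicate 2, at 0.0559. HOXD13, expressed in the developing prostate, was not called in any step. For HOXD13, the values were 0.991, 0.925 and 0.730 CPM across VCaP-T, 0.966, 1.03 and 1.03 across VCaP-CT, then 0.580, 0.689 and 0.894 across VCaP-CT-ER, 1.37, 1.13 and 0.942 for VCaP-CT-BR, and lastly 0.923, 0.840 and 0.655 for VCaP-CT-BR-ER. Sublines next to each other in the order of their HOXD13 means overlapped throughout. All VCaP-CT-ER values nevertheless lay below those of VCaP-CT, and all VCaP-CT-BR-ER values below those of VCaP-CT-BR. VCaP-CT-ER gave a log2 fold change −0.50, SE 0.22, adjusted p = 0.0589, and VCaP-CT-BR-ER a log2 fold change −0.50, SE 0.21, adjusted p = 0.0659.

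ENZ resistance was reached from VCaP-CT and from VCaP-CT-BR, and the interaction of these steps was tested. The change in VCaP-CT-BR-ER against VCaP-CT-BR was lower than that in VCaP-CT-ER against VCaP-CT for 13 of the 22 tested members and higher for 2, against 24.5% and 25.2% of all tested genes. In all, 15 members differed between the steps against 49.7% of genes, and 9 of them by at least 2-fold against 15.8%. The median over the tested members was −0.84 on the log2 scale, against 0.01 over all genes. HOXA10 moved up in the first step and down in the second (log2 difference −1.08, SE 0.084, adjusted p = 1.05e-09), as did HOXA13 (log2 difference −0.87, SE 0.083, adjusted p = 2.68e-08) and HOXA9 (log2 difference −0.94, SE 0.10, adjusted p = 2.07e-07). HOXC8 rose in both but by less in the second (log2 difference −2.01, SE 0.37, adjusted p = 0.000127), while HOXC9 (log2 difference −1.51, SE 0.14, adjusted p = 9.57e-09) and HOXC6 (log2 difference −1.20, SE 0.077, adjusted p = 5.56e-11) rose in the first and were not called in the second. HOXC4 (log2 difference −1.47, SE 0.11, adjusted p = 7.08e-10) and HOXD8 (log2 difference 1.82, SE 0.15, adjusted p = 3.81e-09) went in opposite directions in the steps, HOXC4 up then down and HOXD8 down then up. HOXA3 fell in both and by more in the second (log2 difference −1.07, SE 0.21, adjusted p = 0.000265), and so did HOXA2 (log2 difference −0.91, SE 0.37, adjusted p = 0.0481), whose difference was not called without any of 11 of the 15 libraries. HOXB7 rose in both but by less in the second (log2 difference −0.81, SE 0.31, adjusted p = 0.0344), a difference not called without VCaP-CT-BR replicate 2 or 3, VCaP-CT replicate 2 or 3, VCaP-CT-BR-ER replicate 2 or 3 or VCaP-CT-ER replicate 3, at adjusted p of 0.0507 to 0.0999. HOXB6 and HOXB9 gave a log2 difference 0.21, SE 0.59, adjusted p = 0.795 and a log2 difference −0.45, SE 0.65, adjusted p = 0.593.

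**Figure D5:**
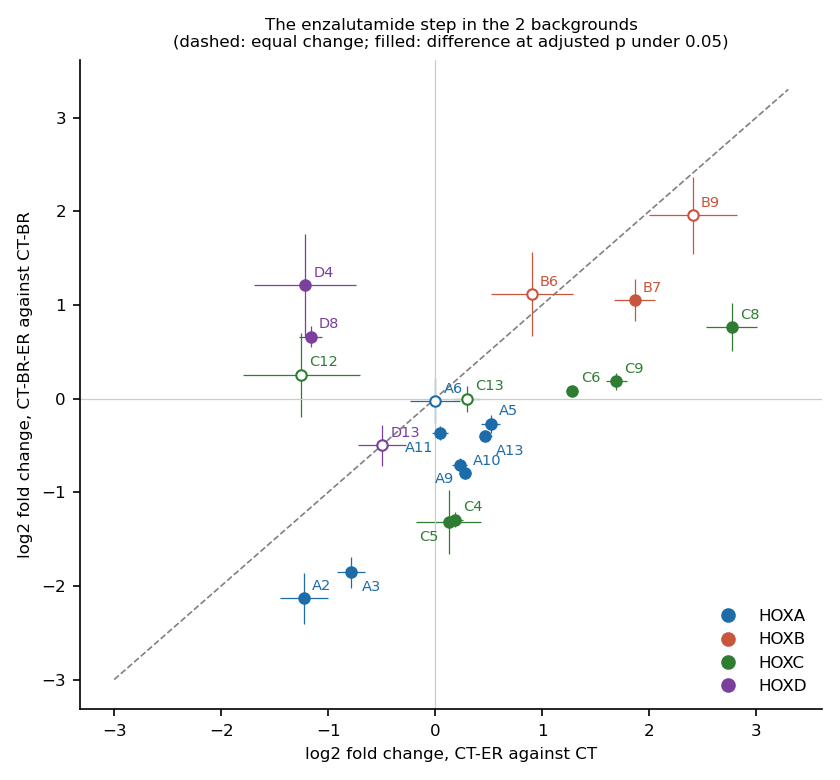
Log2 fold change of the tested HOX genes in VCaP-CT-ER against VCaP-CT (horizontal axis) and in VCaP-CT-BR-ER against VCaP-CT-BR (vertical axis), with the SE as bars, color for the cluster and filled points where the difference had an adjusted p under 0.05. HOXA and HOXC points lie mostly below the dashed line of equal change, HOXD4 and HOXD8 lie above it, and HOXB6 and HOXB9 lie close to it.

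Genes inside the clusters that are not HOX genes, mostly antisense and other noncoding RNAs, changed in some of the steps in which their neighbors did, and the counting ignored strand. Inside HOXC, HOXC-AS1 had 75, 47 and 40 fragments in VCaP-CT-ER against 12, 5 and 7 in VCaP-CT and rose (log2 fold change 2.34, SE 0.33, adjusted p = 2.95e-06), as did HOXC-AS2 (log2 fold change 2.71, SE 0.47, adjusted p = 4.27e-05). Both lie beside HOXC9, whose exons share bases with HOXC-AS2. HOTAIR, the antisense RNA between HOXC11 and HOXC12, had at most 3 fragments in any library. Inside HOXA, 6 of 7 tested genes fell in VCaP-CT-BR-ER, against 21.7% of all tested genes. HOXA-AS2 (log2 fold change −2.07, SE 0.41, adjusted p = 0.000330) and HOXA10-AS (log2 fold change −1.30, SE 0.30, adjusted p = 0.00144) changed most. HOTTIP, the RNA beyond HOXA13, rose in VCaP-CT (log2 fold change 0.61, SE 0.072, adjusted p = 2.11e-07), where HOXA13 was not called, and fell in VCaP-CT-ER (log2 fold change −0.88, SE 0.073, adjusted p = 1.18e-09), where HOXA13 rose. Inside HOXD, all 4 tested genes fell in VCaP-CT-ER, against 31.2% of all tested genes. Among them were HOXD-AS2 (log2 fold change −1.83, SE 0.24, adjusted p = 1.08e-06) and HAGLR (log2 fold change −1.02, SE 0.10, adjusted p = 2.48e-08), which were also lower in VCaP-CT-BR. Inside HOXB none of 7 genes passed the filter.

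Beyond the clusters, the 5 nearest tested genes on each side that are not HOX genes were counted. Of all tested genes 33.1% rose and 32.2% fell in VCaP-CT, 29.6% rose and 31.2% fell in VCaP-CT-ER, 26.1% rose and 27% fell in VCaP-CT-BR, and 21.2% rose and 21.7% fell in VCaP-CT-BR-ER. The counts out of 10 were not tested against these shares. Around HOXB, 6 of 10 fell and none rose in VCaP-CT, 4 rose and 1 fell in VCaP-CT-ER, 6 fell in VCaP-CT-BR, and 5 rose in VCaP-CT-BR-ER. Around HOXA, 2 rose and 4 fell in VCaP-CT, 1 rose and 5 fell in VCaP-CT-ER, 1 rose and 4 fell in VCaP-CT-BR, and 3 fell in VCaP-CT-BR-ER. Around HOXC, 3 rose and 5 fell in VCaP-CT, 2 rose and 2 fell in VCaP-CT-ER, 1 rose and 8 fell in VCaP-CT-BR, and 4 rose in VCaP-CT-BR-ER. Around HOXD, 3 rose and 6 fell in VCaP-CT and likewise in VCaP-CT-ER, 5 rose and 2 fell in VCaP-CT-BR, and 1 rose and 4 fell in VCaP-CT-BR-ER. Their median log2 fold changes around HOXB were −0.62, 0.08, −0.40 and 0.42 in the 4 steps. In the same order the medians were −0.12, −0.82, −0.31 and −0.25 around HOXA. They were −0.06, 0.08, −0.28 and 0.10 around HOXC, and −0.19, −0.16, 0.14 and −0.17 around HOXD.

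The partners and regulators of HOX genes were counted from fixed lists, to be read beside the same shares of all genes. The genes named first in each list had high average log2 CPM, which is not divided by length and ranks no gene above another in transcript level. Of 9 TALE cofactors 7 were tested, among them PBX3 and PKNOX1 at means of 54.3 to 67.8 and 28.1 to 44.6 CPM over the sublines. In VCaP-CT 2 rose and 5 fell, with MEIS3 changing most (log2 fold change −1.68, SE 0.11, adjusted p = 1.32e-11). In VCaP-CT-ER 2 rose and 3 fell, in VCaP-CT-BR 1 rose and 3 fell, with PKNOX2 lower (log2 fold change −1.18, SE 0.20, adjusted p = 3.45e-05), and in VCaP-CT-BR-ER 1 rose and 1 fell. Their median log2 fold changes in the 4 steps were −0.40, −0.06, −0.30 and −0.08, against 0.03, −0.02, −0.02 and 0.003 over all genes.

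Of 20 Polycomb genes 17 were tested, among them CBX6 and PHC2, with medians of 0.04, 0.03, 0.01 and 0.06 in the 4 steps. In VCaP-CT 5 rose and 6 fell, in VCaP-CT-ER 5 rose and 2 fell, in VCaP-CT-BR 6 rose and 6 fell, and in VCaP-CT-BR-ER 5 rose and 4 fell. JARID2, a subunit of Polycomb repressive complex 2, rose in VCaP-CT (log2 fold change 1.35, SE 0.096, adjusted p = 8.72e-11) and fell in VCaP-CT-ER (log2 fold change −1.25, SE 0.094, adjusted p = 2.71e-10), and BMI1, of complex 1, rose in VCaP-CT-BR (log2 fold change 0.74, SE 0.065, adjusted p = 6.76e-09) and fell in VCaP-CT-BR-ER (log2 fold change −0.68, SE 0.064, adjusted p = 2.82e-08). All 14 Trithorax genes were tested, with 5 rising and 2 falling in the step to VCaP-CT, 8 rising and 4 falling in that to VCaP-CT-ER, 4 and 5 in that to VCaP-CT-BR, and 4 and 2 in that to VCaP-CT-BR-ER. PSIP1 and MEN1 were named by average log2 CPM, and the medians were 0.03, 0.22, 0.02 and 0.11. KDM6A, a demethylase of the Polycomb mark, rose in VCaP-CT (log2 fold change 0.88, SE 0.056, adjusted p = 1.10e-11), its relative KDM6B fell in VCaP-CT-ER (log2 fold change −0.93, SE 0.11, adjusted p = 2.02e-07) and VCaP-CT-BR (log2 fold change −0.74, SE 0.11, adjusted p = 7.65e-06), and ASH2L, a subunit of the methyltransferase complexes, rose in VCaP-CT-BR-ER (log2 fold change 0.56, SE 0.059, adjusted p = 1.16e-07).

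Of 17 retinoid genes 11 were tested, among them the receptor RXRA and ALDH1A1, with medians of 0.53, −0.42, −0.88 and 0.12. In VCaP-CT 7 rose and 3 fell, and in VCaP-CT-BR 2 rose and 9 fell. CRABP2, which carries retinoic acid, rose in VCaP-CT (log2 fold change 3.33, SE 0.23, adjusted p = 4.31e-11), the receptor RXRG fell in VCaP-CT-ER (log2 fold change −3.33, SE 0.63, adjusted p = 0.000113) and VCaP-CT-BR (log2 fold change −2.17, SE 0.56, adjusted p = 0.00259), and ALDH1A1, which makes retinoic acid, fell in VCaP-CT-BR-ER (log2 fold change −1.73, SE 0.069, adjusted p = 2.72e-14). RXRG rested on 1 to 20 fragments per library. In VCaP-CT-ER 1 rose and 5 fell, and in VCaP-CT-BR-ER 4 rose and 2 fell. Among 19 other homeobox genes 12 were tested, among them DLX1 and MNX1. In VCaP-CT 1 rose and 5 fell, in VCaP-CT-ER 5 rose and 2 fell, in VCaP-CT-BR 4 rose and none fell, and in VCaP-CT-BR-ER 1 rose and 9 fell, with a median log2 fold change of −0.64 over the tested members against 0.003 over all genes. Their medians in the first 3 steps were −0.55, 0.35 and 0.49. DLX3 fell in VCaP-CT (log2 fold change −2.32, SE 0.22, adjusted p = 9.24e-09) and rose in VCaP-CT-ER (log2 fold change 2.89, SE 0.21, adjusted p = 1.17e-10) and VCaP-CT-BR (log2 fold change 2.12, SE 0.23, adjusted p = 1.23e-07), and DLX4 fell in VCaP-CT-BR-ER (log2 fold change −3.62, SE 0.88, adjusted p = 0.00202). DLX4 rested on 0 to 17 fragments per library.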

How the data were processed

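Per the labels, total RNA of 15 VCaP libraries was sequenced. The authors aligned reads with STAR 2.5.4b to GRCh38 and deposited raw fragment counts per gene from featureCounts 1.6.2 with GENCODE 28, without strand and leaving out fragments on several genes or places. One build is also listed as hg38. The counts were not normalized by the authors.

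Totals were 33665716 to 46935279 per library. Genes were tested with edgeR 4.0.16 (R 4.3.3) by quasi-likelihood, TMM scaling, filterByExpr with a minimum count of 10 and 1 term per subline over all 15 libraries, with Benjamini-Hochberg adjustment over 19621 genes at 0.05. CPM used TMM scaling, and TPM used the exonic length in the files. The scripts were tested on simulated data. Windows were searched with minimap2 2.31. Groups came from the labels.

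The HOX genes, lists and tests were chosen with earlier results of these data known. Per-library values are given for the 3 members with the highest mean TPM in each cluster and for members called with at least a 2-fold change. From each other list the 2 genes with the highest average log2 CPM and the called gene with the largest change per step are named. Some genes that this rule names are not reported here, though they count in the totals. Alternatives were DESeq2 1.42.0, other scalings and filters, a replicate block, the 6 libraries of a comparison alone, and each library left out.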

Additional observations from a re-analysis of the deposited data

Results flagged for a closer look

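For 15 of the 22 tested HOX genes, the change on becoming resistant to ENZ differed between VCaP-CT and VCaP-CT-BR as the parent, by the interaction term of edgeR's quasi-likelihood test. The same test called 49.7% of all tested genes, 24.5% lower and 25.2% higher. The values are on the log2 scale, the change with VCaP-CT as parent subtracted from that with VCaP-CT-BR. Of the HOXA genes, HOXA10 came to −1.08, HOXA3 to −1.07, HOXA9 to −0.94, HOXA2 to −0.91, HOXA13 to −0.87, HOXA5 to −0.79 and HOXA11 to −0.41. HOXB7 came to −0.81. In the HOXC cluster, HOXC8 came to −2.01, HOXC9 to −1.51, HOXC4 to −1.47, HOXC5 to −1.45 and HOXC6 to −1.20. HOXD4 at 2.42 and HOXD8 at 1.82 had the opposite sign, and HOXD4 rested on 1 to 17 fragments per library. The HOXA2 value had an adjusted p of 0.0481 and was not called without any of 11 of the 15 libraries, at adjusted p of 0.0521 to 0.129. No cause of these differences was tested.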

How the results depend on the processing

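Of 69 calls of a HOX gene in a step or in the difference of the ENZ steps, 58 held under every alternative in which the gene was still tested. No value was reversed. With at least 10 fragments asked for in every library, genes such as HOXB9, HOXC5 and HOXC12 were not tested. The others were HOXC8 in VCaP-CT and VCaP-CT-BR-ER, HOXB6, HOXC13, HOXC4 and HOXD4 in VCaP-CT-ER, HOXA6 and HOXD4 in VCaP-CT-BR, HOXA5 in VCaP-CT-BR-ER, and HOXA2 and HOXB7 in the difference. With a change of at least 2-fold also asked for, the numbers called were 5 for VCaP-CT, 8 for VCaP-CT-ER, then 2 for VCaP-CT-BR, 6 for VCaP-CT-BR-ER and 9 for the difference, fewer because the rule is stricter. With each library left out in turn, the numbers called were 15 to 16, 12 to 16, 7 to 10, 11 to 14 and 13 to 15 in the same order, and 21 to 23 for any difference. Without VCaP-CT-BR replicate 1, or with the 6 libraries compared alone, 3 members in place of 5 were called lower in VCaP-CT-BR. At 2 TPM in place of 1 TPM, 1 HOXB gene in place of 3 and 1 HOXD gene in place of 2 reached the level in a subline.

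DESeq2 called 16, 14, 9, 14 and 14 members in the same order. Replicate numbers did not pair the libraries, since over 12720 genes the correlations of same-numbered libraries ranged from −0.51 to 0.53 and in no step did every pair exceed 0.1. Nor did every library correlate best with its own number in any step. With the replicate block the numbers called were 16, 14, 8, 13 and 15, and 21 for any difference, with HOXB6, HOXC13 and HOXA6 no longer called at adjusted p of 0.0605, 0.0511 and 0.0542. Depth limits the members with few fragments, such as HOXB6, HOXB9, HOXC5, HOXC8, HOXC12 and HOXD4 among those tested.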
